A study of Apis mellifera with 25 samples.

Results

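Paternal and maternal reads were compared in cross 888, the 6 of 25 honey bee (Apis mellifera) worker libraries whose titles begin with 888. Of the 6 bees, 3 had active and 3 had inactive ovaries, and the whole series held 12 active and 13 inactive libraries. Per the labels, all workers came from reciprocal crosses between Africanized and European bees and lived about 18 days in a colony without a queen, after which the ovaries were scored by dissection. Each library held polyadenylated RNA of 1 gutted abdomen, which kept its fat body and ovaries. The labels do not say what the number 888 marks, which lineage was the mother, or how many queens and drones stood behind the 6 bees. Each deposited allele table lists reads at single-nucleotide positions as a D and a Q count per bee. Neither letter is defined in the labels. Here D is taken for the father (a drone) and Q for the mother (a queen), and every direction given depends on this.

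In bees a drone develops from an unfertilised egg and is haploid, so all sperm of a drone carry the same paternal genome, whereas a diploid queen passes a recombined genome to each daughter. Kinship theory holds that paternal and maternal alleles of a worker can differ in interest, for example over whether the worker activates its ovaries once the queen is lost. An allele can be read more often because of the parent it came from or because of its own sequence or lineage. Within a single cross, parent and allele cannot be told apart, so a bias below means only unequal D and Q reads.

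Read totals in the gene count table were 30562903, 30863681 and 21613713 in active replicates 1 to 3 and 14290796, 28193230 and 7539840 in inactive replicates 1 to 3. The position tables shared 50214 rows inside genes. D equalled Q in all 6 bees in 13469 of these (26.8%), which were dropped. The other 36745 rows lay in 4096 genes, and 1860 genes had at least 10 reads in every bee and were tested. At the edge of this filter, 62 tested genes had exactly 10 reads in their lowest bee and 48 untested genes had 9. Near-equal counts remained: among 5581 rows with at least 20 reads in each bee, 1558 (27.9%) had D and Q within 1% of their reads in every bee. Counts also recurred along scaffolds. Of 22789 rows with at least 60 reads, 8831 (38.8%) had the same 12 counts as another row of their scaffold, and 5453 (23.9%) had this match at least 1000 bases away. Summed reads are therefore not a count of separate molecules, and counting intervals cover counting error only. A second reading beside the main one used 14265 rows, called separating positions here. Left out were rows with too few reads and rows with D and Q closer to equal than sampling allows (the lower 0.01 tail). D and Q at a separating position can therefore still differ by no more than sampling gives.

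Inactive replicates 1 and 2 stood apart from the other 4 bees. Across the 1860 genes, Pearson's r of the D share, the percentage of a gene's reads that were D, was 0.80 between these bees. It was 0.66 to 0.68 between active bees, 0.56 to 0.59 between active bees and inactive replicate 3, and 0.39 to 0.46 between inactive replicates 1 or 2 and the other bees. These correlations are across genes that share libraries and positions, and they describe the bees only. They were close to these values over the 1186 genes tested at separating positions, with 0.81 between inactive replicates 1 and 2. Results are given with and without this pair where they lead a comparison.

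**Figure D1:**
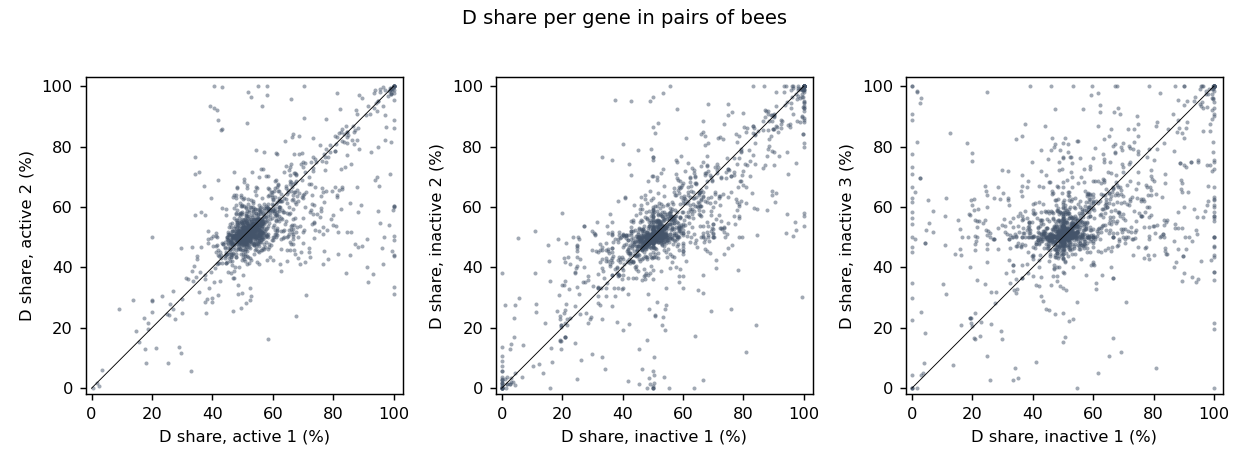
D share of reads (%) per gene in 3 pairs of bees, with active replicates 1 and 2 on the left, inactive replicates 1 and 2 in the middle and inactive replicates 1 and 3 on the right; each point is 1 of 1860 genes and the line marks equal shares. The middle pair follows the line most closely (r = 0.80), and the right pair (r = 0.40) has many genes that are near 50% in one bee and far from it in the other.

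The allele shares of some genes differed widely between bees. A gene was said to lose the reads of a parent in a bee when at least 30 reads were present there, at most 5% came from that parent, and at least 2 other bees lay between 30% and 70% D. Of the 4096 genes with rows used, such a loss occurred in 102, of paternal reads in 45, of maternal reads in 60 and of both kinds, in different bees, in 3. Only genes with at least 30 reads in a bee could show a loss there. They numbered 2710, 2796 and 2470 in active replicates 1 to 3 and 1571, 2284 and 1632 in inactive replicates 1 to 3. Paternal reads were lost in 0, 0 and 0 genes in active replicates 1 to 3, and in 18, 38 and 3 genes in inactive replicates 1 to 3. Maternal reads were lost in 17, 9 and 8 genes in the active bees and in 23, 25 and 9 genes in the inactive bees. Every paternal loss was thus in an inactive bee, and all but 3 of these gene and bee combinations lay in inactive replicates 1 and 2. That pair lost paternal reads together in 14 genes and maternal reads together in 11, against 0 and at most 6 genes in any other pair of bees. It had been set apart by D shares of these same bees, so its lead here is no separate support. Since both bees of the pair had inactive ovaries, ovary status and the pair cannot be told apart in the paternal losses.

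**Figure D2:**
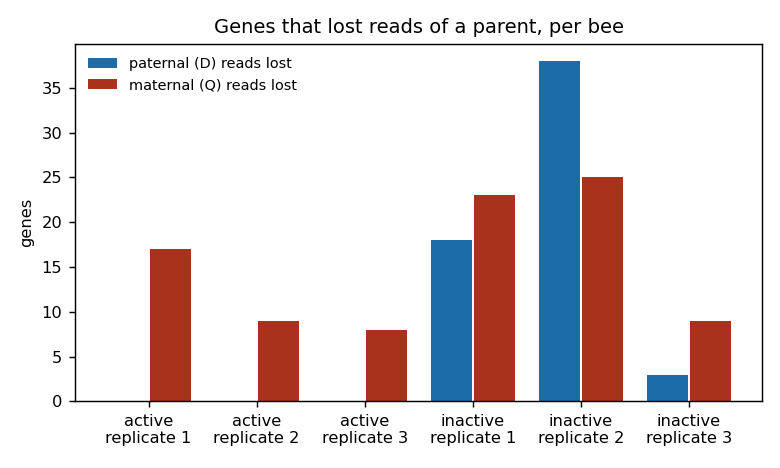
Number of genes (vertical axis) that lost paternal (D) or maternal (Q) reads in each of the 3 active and 3 inactive bees. Paternal losses are at 0 in all active bees and reach 38 genes in inactive replicate 2, whereas maternal losses occur in every bee.

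At Group14.14:1098434-1099241, D reads numbered 139, 77 and 21 in active replicates 1 to 3, against 135, 96 and 54 Q reads. In inactive replicates 1 to 3 the same gene had 0, 0 and 32 D reads, against 85, 97 and 39 Q reads. Paternal reads were thus present in 4 bees and at 0 in the pair that stood apart. Maternal reads were low instead at Group7.10:382468-387125, where D reads numbered 7071, 2140 and 1256 in active and 11834, 6461 and 860 in inactive bees. Q reads there numbered 7311, 2499 and 2101 in active and 523, 73 and 1178 in inactive bees, so that maternal reads were scarce in the same pair. Both genes were picked after their values were seen. The scaffold with the most such genes, Group16.5, held 8 that lost paternal reads, all in inactive replicate 2, between positions 543398 and 628516. Over the 85 rows of that stretch, the median row had 0 D and 23 Q reads in inactive replicate 2, against 48 D and 38 Q reads in active replicate 1. These rows repeat like counts across 11 genes, so the 8 genes are not 8 separate cases.

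Paternal reads made up slightly more than 50% of all reads in most bees. Summed over the positions used, the D share was 52.4%, 51.6% and 51.2% in active replicates 1 to 3 and 53.6%, 49.97% and 53.8% in inactive replicates 1 to 3. It lay above 50% in 5 of 6 bees, with a mean of 52.1% ± 1.48 (SD, n = 6; two-sided exact permutation test with D and Q swapped within bees, p = 0.0625, where the smallest possible is 0.03125). Bees with active ovaries averaged 51.7% ± 0.653 and bees with inactive ovaries 52.5% ± 2.16 (SD, n = 3 each; two-sided exact permutation test, p = 0.7, where 3 against 3 cannot go below 0.1). Without inactive replicates 1 and 2 the mean was 52.2%. At separating positions the D share was 55.7%, 53.8% and 52.9% in active bees and 58.9%, 49.96% and 59.3% in inactive bees, with a mean of 55.1% ± 3.64 (SD, n = 6; exact permutation test, p = 0.0625). Leaving out near-equal rows moves shares away from 50% by itself. The RNA came from mixed tissue, in which fewer cells of a type and less RNA per cell cannot be told apart.

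Gene by gene, more genes carried an excess of paternal than of maternal reads. With all 6 bees in 1 fit and the bee as a block, 140 genes (7.53% of 1860) were called paternal and 27 genes (1.45%) maternal by edgeR's quasi-likelihood test at a Benjamini-Hochberg adjusted p under 0.05. The 167 calls came to 8.98% of the genes tested, and 83.8% of them were paternal (exact binomial 95% interval 77.4% to 89.1%, which treats genes as independent although many share reads). The median log2 ratio of D to Q reads was 1.21 among paternal calls and -1.65 among maternal calls, against 0.04 over all 1860 genes. The ratio was above 0 in 1283 genes and below 0 in 577, a majority that turned to 668 of 1860 above 0 (35.9%) when D and Q columns were scaled separately by TMM. Without inactive replicates 1 and 2, 125 genes were called paternal (5.59% of 2236) and 32 maternal (1.43%). Of these, 62 paternal and 21 maternal calls were also called with 6 bees, and all 140 and 27 original calls kept the sign of their ratio. The bees left were among the 6 that made the calls, so the kept signs are no separate support. Paternal calls numbered 77 without active replicate 1, 77 without active replicate 2 and 92 without active replicate 3, and maternal calls numbered 16 without active replicate 1 and 18 without active replicate 3. At separating positions, 183 of 1186 genes were called paternal (15.4%) and 44 maternal (3.71%). Those positions were chosen by the difference that is tested, so the higher percentages there are no separate support.

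This split rests on a shared library size for the D and Q reads of a bee, so that a log2 ratio of 0 means equal reads. When the 12 D and Q columns were scaled separately, the median ratio over all genes moved to -0.11 with TMM scaling and to -0.14 with DESeq2 size factors, a shift of -0.15 and -0.17. Calls then numbered 143 paternal and 337 maternal with TMM, and 150 paternal and 445 maternal with size factors, so that 29.8% and 25.2% of calls were paternal. Few called genes changed sign. Of the 167 original calls, 163 kept their sign with TMM and 160 with size factors.

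**Figure D3:**
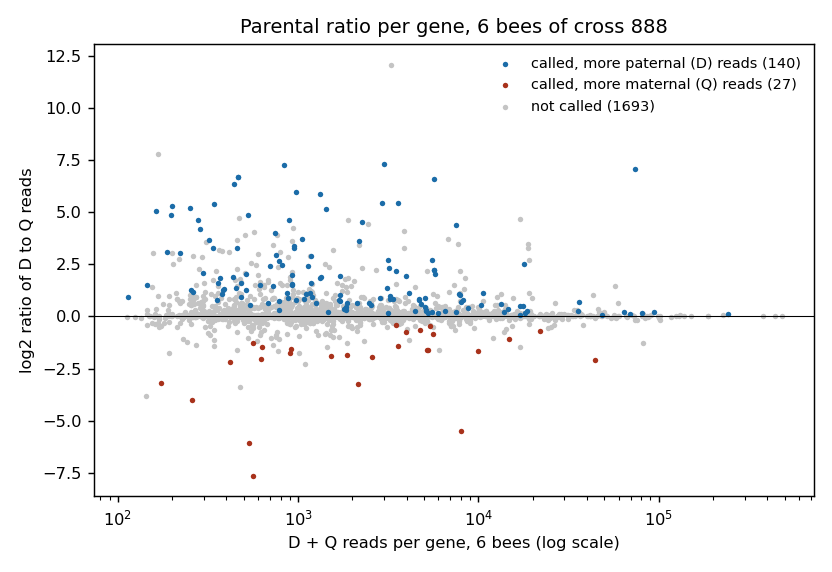
Log2 ratio of D to Q reads per gene, over 6 bees, against the D + Q reads of the gene on a log axis; colours mark 140 paternal, 27 maternal and 1693 uncalled genes. Ratios spread widely among genes with few reads, and paternal calls with small ratios lie at the right, among genes with many reads.

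Among calls made with the shared library size, most large ratios were paternal, and so were most small ones. With D and Q columns scaled separately, most calls were maternal instead. Among paternal calls, 34 had less than a 1.5-fold excess, 26 had 1.5- to 2-fold, 31 had 2- to 4-fold, 26 had 4- to 16-fold and 23 had at least 16-fold. Among maternal calls, these classes held 2, 4, 12, 5 and 4 genes. The D share lay on the same side of 50% in every bee in 137 of 140 paternal and in all 27 maternal calls. Over all genes tested it lay above 50% in every bee in 348 genes (18.7%) and below 50% in every bee in 72 (3.87%). Maternal calls rested on fewer positions, with a median of 2 per gene against 6.5 in paternal calls and 6 over all genes tested. A single position stood behind 22 paternal calls (15.7%) and 9 maternal calls (33.3%), against 18.8% of all genes tested. In genes with several positions of at least 60 reads, 969 of 1222 positions in paternal calls (79.3%) and 148 of 156 in maternal calls (94.9%) leaned the same way as their gene. Within 1% of equal reads lay 285 of the 1222 positions in paternal calls. A gene's direction is the sum of its positions, and many positions repeat counts. These shares therefore describe the calls and test nothing.

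Counts of genes past a fixed D share in every bee involve no test, but they too take 50% as equal reads, as the shared library size does. The D share was above 60% in all 6 bees in 83 genes (4.46%) and below 40% in all 6 in 22 genes (1.18%), of which 66 and 19 were called. At 70% and 30% these counts were 48 and 16 genes, and at 95% and 5% they were 10 and 3. In 698 genes (37.5%) every bee lay between 45% and 55%. By contrast, the D share spanned more than 40 percentage points among the 6 bees in 249 of 1860 genes. Of these 4 were called, against 167 of all 1860. That low number follows largely from the choice, since the test weighs a ratio against its spread between bees. In 2 genes no bee had a Q read, and neither was called (edgeR adjusted p 0.113 and 0.207), although the first had 3296 D reads and the other 168.

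GB43326 (scaffold GroupUn98, positions 23621 to 24009) had the largest paternal ratio among calls with at least 500 reads. It had 406, 545 and 298 D reads in active replicates 1 to 3, against 3, 4 and 2 Q reads. In inactive replicates 1 to 3 it had 867, 522 and 330 D reads, against 1, 7 and 1 Q reads. All 6 bees were almost wholly paternal, with a mean D share of 99.4% ± 0.418 (SD, n = 6), a log2 ratio of 7.30 (SE 0.39) and an edgeR adjusted p of 0.000478. Of its 10 positions, 9 were above 95% D and 1 stood at 41.2%. With 1 position per gene its edgeR adjusted p was 0.156.

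GB51059 (Group10.26:872956-883255) had the most reads among paternal calls with reads of both parents in every bee. D reads numbered 17684, 20506 and 14521 in active bees, against 15860, 18739 and 14243 Q reads. In inactive bees D reads numbered 11831, 52918 and 9059, against 10867, 49803 and 8234 Q reads. The excess was small and in the same direction in 6 of 6 bees, at 51.9% ± 0.804 D (SD, n = 6; log2 ratio 0.11, SE 0.02, edgeR adjusted p = 0.0209). Of its 29 positions, 22 lay within 1 point of 50% and 4 were above 60%. Its ratio turned to -0.033 with TMM scaling and to -0.062 with size factors, so its direction depends on the scaling. The call was not kept under 12 of 24 alternatives, among them leaving out any 1 of 5 bees (all but active replicate 3; edgeR adjusted p 0.0568 to 0.0765) or inactive replicates 1 and 2 together (0.131).

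Among maternal calls with at least 500 reads, GB52653 (GroupUn134, position 12145) had the largest ratio. It had 1, 0 and 0 D reads in active bees, against 251, 114 and 89 Q reads, and 0, 1 and 0 D reads in inactive bees, against 52, 37 and 17 Q reads. Nearly all reads were thus maternal in every bee (mean D share 0.505% ± 1.05, SD, n = 6; log2 ratio -7.63, SE 0.53, edgeR adjusted p = 0.00121), though at a single position. GB48020 (Group1.4:244126-245352) had the most reads among maternal calls with reads of both parents. D reads numbered 1250, 1077 and 654 in active bees, against 4969, 2667 and 4315 Q reads. In inactive bees D reads numbered 654, 2902 and 192, against 1536, 22915 and 986 Q reads. Every bee and all 14 positions were below 40% D, with positions between 5.59% and 29.8% and a mean per bee of 19.9% ± 7.89 (SD, n = 6; log2 ratio -2.10, SE 0.30, edgeR adjusted p = 0.013). Without active replicate 1 its edgeR adjusted p was 0.0537.

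**Figure D4:**
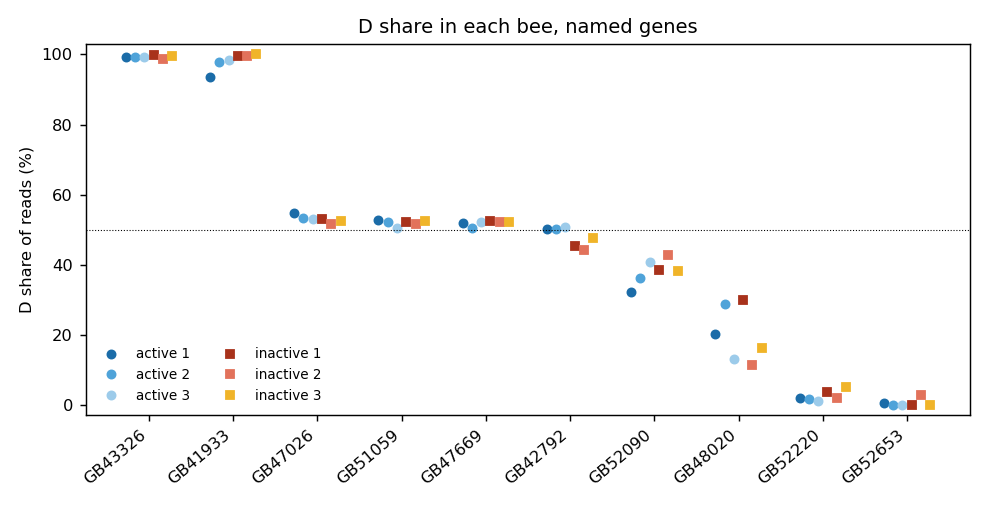
D share of reads (%) in each of the 6 bees for the genes named in the text, with circles for active and squares for inactive bees and a dotted line at 50%. Near-exclusive genes such as GB43326 (mean 99.4%) and GB52653 (mean 0.505%) show little spread between bees, and GB51059, with the most reads among the named genes, lies just above the line (mean 51.9%).

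By the linkage group in the scaffold names, paternal calls ranged from 0.893% of tested genes in Group5 (1 of 112) to 12.8% in Group11 (19 of 149), and reached 13.4% on unplaced scaffolds (11 of 82, with 4 maternal calls). The share of genes with a ratio above 0 ran between 59.1% in Group16 and 80.2% in Group13, all with the shared library size. These shares depend on that choice, and only 35.9% of all genes had a ratio above 0 with TMM scaling. Group11.18 held the most paternal calls of any scaffold, 13 of 61 tested genes (21.3%) beside 1 maternal call. Of these, 9 lay among the 17 genes tested between positions 3774021 and 4531580, and 4 among the 44 genes elsewhere on that scaffold. The ends of this stretch are those of genes already seen to be high in 5 bees, so these counts describe it and test nothing.

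In that stretch, neighbouring genes shared a pattern over bees. In 11 of the 17 genes the D share was above 60% in 5 bees and between 40% and 60% in inactive replicate 3. Over these 11 genes the median D share was 90.8%, 91.9% and 95.7% in active replicates 1 to 3, and 88.1%, 91.6% and 53.1% in inactive replicates 1 to 3. Their summed reads in active replicates 1 to 3 were 2700, 3112 and 1927 D, against 720, 874 and 457 Q. In inactive replicates 1 to 3 they were 745, 1327 and 319 D, against 215, 293 and 296 Q. Maternal reads were thus scarce in 5 bees and nearly as many as paternal reads in inactive replicate 3. The same pattern was seen in 20 genes in all, and 11 of them were these neighbours. Without inactive replicate 3, paternal calls in the stretch numbered 12 and on the scaffold 14.

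**Figure D5:**
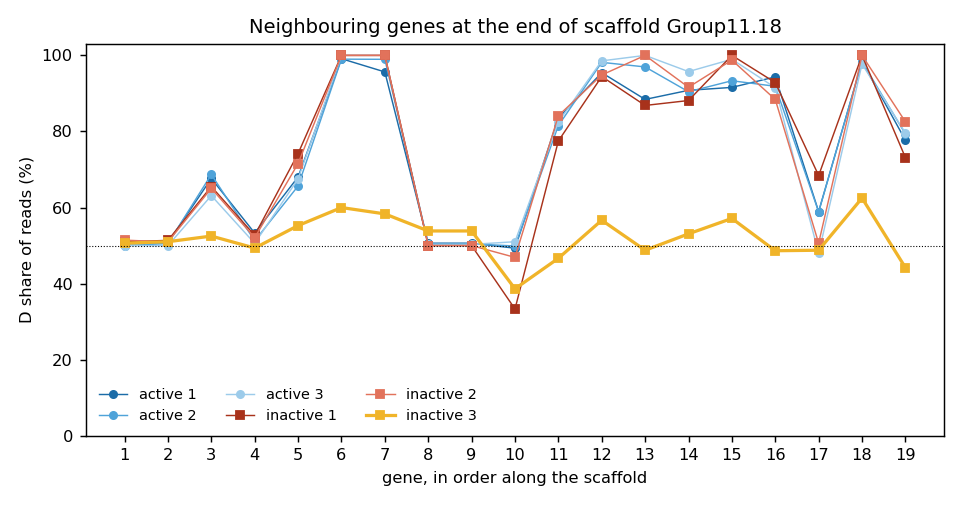
D share of reads (%) in each bee for 19 tested genes in their order along the end of scaffold Group11.18, with the dotted line at 50%. Inactive replicate 3, drawn as the thick line, stays near 50% over most of the genes where the other 5 bees lie above 60%.

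In other genes the pair that stood apart lay opposite the other bees. In 12 genes inactive replicates 1 and 2 were below 40% D while the other 4 bees were above 60%, against at most 1 gene for any other pair. These 12 genes are not separate cases. Overlapping genes at Group14.10:233883-255905 share most of their reads, and 3 of the 12 lie on Group11.20 between positions 802673 and 818191. At Group13.5, position 45465, D reads numbered 707, 993 and 583 in active bees, against 2, 6 and 5 Q reads. In inactive replicates 1 to 3 there were 4, 2 and 52 D reads, against 12, 64 and 1 Q reads. The gene was thus almost wholly paternal in 4 bees and mostly maternal in 2, and its difference between ovary statuses had an edgeR adjusted p of 0.63. It was picked after its values were seen, and it rests on 1 position with few reads in inactive replicate 1. Only this pair was below 40% in 32 further genes and above 60% in 36 while the other bees lay between, against at most 6 and 14 genes for any other pair. Neighbours are among these too, such as 3 of the 32 on Group2.11 between positions 270744 and 288129. The pair was set apart by the D shares of these same genes. Its lead over other pairs restates that choice and is no separate support.

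In bees with active ovaries taken alone, in a fit with a ratio for each ovary status, 49 genes were called paternal (2.63%) and 16 maternal (0.86%) by edgeR, 3.49% in all. In bees with inactive ovaries 83 genes were called paternal (4.46%) and 25 maternal (1.34%), 5.81% in all. The lists shared 35 paternal genes, 71.4% of the active and 42.2% of the inactive list, and 12 maternal genes, 75% and 48% of those lists. No gene (0) was called in opposite directions. The counts depended on single bees. Without active replicates 1, 2 or 3, paternal calls in active bees numbered 5, 9 or 11, and without inactive replicate 1 or 3 they numbered 31 or 89. Without inactive replicate 1, 2 or 3, paternal calls in inactive bees numbered 33, 21 or 153, and without active replicate 1, 2 or 3 they numbered 37, 37 or 25. Maternal calls in active bees numbered 1, 4 or 3 without active replicate 1, 2 or 3. Maternal calls in inactive bees numbered 13, 10 or 104 without inactive replicate 1, 2 or 3, and 13, 16 or 12 without active replicate 1, 2 or 3. Without both inactive replicates 1 and 2, the lone inactive bee, assumed to vary like the active ones, had 5 paternal and 1 maternal calls.

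Among calls with at least 500 reads in active bees, GB43326 again had the largest paternal ratio (log2 7.04, SE 0.55, edgeR adjusted p = 0.0123). That call was lost without active replicate 1, 2 or 3 and with 1 position per gene (edgeR adjusted p up to 0.234). GB47026 (Group3.15:380306-392265) had the most reads, with 10348, 19087 and 8284 D reads in active bees, against 8556, 16797 and 7327 Q reads. In inactive bees it had 1332, 2625 and 1762 D reads, against 1179, 2468 and 1597 Q reads. D exceeded Q in 6 of 6 bees by a small margin (active log2 ratio 0.21, SE 0.03, edgeR adjusted p = 0.033), and the call was lost under 15 of 24 alternatives. Of its 16 positions, with reads summed over 6 bees, 3 were above 60% D, and most of the others repeated nearly the same D and Q counts. Among calls with at least 500 reads in the bees compared, GB52220 (GroupUn7:110336-110683) had the largest maternal ratio in both ovary statuses. GB52653, below that number of reads, had larger maternal ratios. Its log2 ratios were -8.28 in active and -6.41 in inactive bees (edgeR adjusted p 0.0116 and 0.0169). For GB52220, D reads numbered 36, 28 and 23 in active and 12, 31 and 17 in inactive bees. Its Q reads numbered 1934, 1599 and 2134 in active and 320, 1568 and 326 in inactive bees. Maternal reads exceeded paternal ones in every bee, with a log2 ratio of -6.02 (SE 0.35, edgeR adjusted p = 0.00606) in active and -4.94 (SE 0.36, edgeR adjusted p = 0.00763) in inactive bees. Over all 6 bees, 11 of its 14 positions were below 5% D. Its active call was lost without active replicate 1 or 2 and its inactive call without inactive replicates 1 and 2 together, and both with 1 position per gene. GB52090 (Group12.17:1804245-1815724) had the most reads among maternal calls in active bees, with 1265, 2053 and 1139 D reads against 2684, 3637 and 1664 Q reads. Its excess of Q had a log2 ratio of -0.82 (SE 0.12, edgeR adjusted p = 0.0462). With reads summed over 6 bees, 13 of its 30 positions were below 40% D, and the other 17 lay within 1 point of 50%. The same 13 positions were also listed for another gene (Group12.17:1815470-1815724), itself called maternal over 6 bees (log2 ratio -1.08, edgeR adjusted p = 0.0105). The maternal calls of both genes thus rest on shared reads. The active call of GB52090 was lost under 14 of 24 alternatives, among them dropping the shared positions, using every position and leaving out any 1 of the 6 bees.

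Among calls with at least 500 reads in inactive bees, GB41933 (GroupUn179:19394-19816) had the largest paternal ratio. It had 261, 177 and 138 D reads in inactive bees, against 1, 1 and 0 Q reads. In active bees it had 175, 352 and 203 D reads, against 12, 8 and 3 Q reads. Reads were mostly paternal in all 6 bees (inactive log2 ratio 8.01, SE 0.65, edgeR adjusted p = 0.00917), though the call was lost under 5 of 24 alternatives, among them leaving out inactive replicate 1 or 2. GB47669 (Group1.2:692044-714365) had the most reads, with 1280, 11189 and 2627 D reads in inactive bees, against 1166, 10263 and 2417 Q reads. The excess was small (log2 ratio 0.13, SE 0.02, edgeR adjusted p = 0.0404). With reads summed over 6 bees, 20 of its 22 positions lay within 1 point of 50%. Its ratio in inactive bees turned to -0.031 with DESeq2 size factors. The call was not kept under 14 of 24 alternatives, among them leaving out any 1 of the 3 inactive bees, DESeq2 and TMM. GB42792 (Group9.10:1011133-1018372) had the most reads among maternal calls in inactive bees, with 438, 2289 and 596 D reads in inactive bees, against 529, 2911 and 658 Q reads. Its active bees had 1223, 735 and 643 D reads, against 1213, 727 and 625 Q reads, close to equal. The call in inactive bees (log2 ratio -0.25, SE 0.04, edgeR adjusted p = 0.0413) does not show a difference between ovary statuses, which itself was 0.28 (SE 0.06, edgeR adjusted p = 0.403, active minus inactive). That inactive call was not kept under 12 of 24 alternatives, among them leaving out any 1 of 5 bees (all but inactive replicate 3).

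No gene (0 of 1860, 0%) differed between active and inactive bees in its log2 ratio of D to Q reads by edgeR, where the smallest adjusted p was 0.143. At an unadjusted p under 0.05 there were 133 of 1860 genes, 67 with a higher and 66 with a lower paternal ratio in active bees. A fraction of about 0.05 of the genes tested passes that threshold with no difference present. DESeq2 called 9 higher and 4 lower. The count rested on inactive replicate 3. Without that bee the edgeR fit called 92 of 2050 genes (4.49%), 64 with a higher and 28 with a lower paternal ratio in active bees. The inactive bees left in that fit are the pair that stood apart, so ovary status and that pair cannot be told apart there. With inactive replicates 1 and 2 left out instead, only inactive replicate 3 remained, so the spread among inactive bees could not be measured.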

How the data were processed

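Allele and gene tables held raw read counts as deposited by the authors. The submitters' processing notes name TopHat and edgeR, without versions. Not given in the sources used here are the genome build, the annotation, the strand setting and how a read was assigned to a parent. None (0) of 15314 gene identifiers matched the 12398 genes of the reference table used here (Amel_HAv3.1), so the identifiers of the files are given, at most 2 per direction of a comparison, tissue markers could not be checked, and whether a position is exonic is not known. Scaffold positions are those of the files.

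D and Q counts of positions in both tables were summed per gene and bee. A position listed for 2 genes counted in each. Rows with D equal to Q in all 6 bees were dropped. Genes with at least 10 D + Q reads in every bee were fitted with edgeR 4.0.16 in R 4.3.3 (robust quasi-likelihood F test, 1 library size per bee, bee as a block, which takes up ovary status). A second fit had a ratio per ovary status. Adjusted p under 0.05 made a call, and a standard error is the absolute log2 ratio divided by the square root of F. Reads at the positions used ranged from 821031 to 3815450 per bee. Named genes were, per direction, the call with the largest ratio with at least 500 reads, and the call with the most reads and at least 5% from each parent in every bee, both leaning the same way in every bee of the comparison (all 6, the active or the inactive bees). Separating positions had at least 2 bees with 10 reads and differences between D and Q that, summed as a chi-square statistic over bees, lay outside its lower 0.01 tail.

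Alternatives covered positions, filters, scaling, DESeq2 1.42.0, limma 3.58.1 (pseudocounts 0.5 and 2), a fold of 1.5 and leaving out bees. The code was tested on simulated counts. P-values measure the spread between these 6 bees. Replicate numbers are names, given in deposited order. Members, rules and most alternatives were chosen with earlier results of these data known. The chosen position sets and the pair of inactive bees left out also follow from those results.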

Additional observations from a re-analysis of the deposited data

Results flagged for a closer look

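Among 16 sets of 6 bees checked for a value far from the rest, 3 held one, and chance gives about 1 in 20 sets. For GB52653, inactive replicate 2 had the highest D share, 2.63%, against 0.397% in the next bee, with 1 D read in each of these bees, beside 37 Q reads in inactive replicate 2 and 251 in active replicate 1. For GB41933, active replicate 1 had the lowest D share, 93.6%, against 97.8% in the next bee. For GB47669, active replicate 2 had the lowest D share, 50.5%, against 52.0% in the next bee. Positions outside genes, which no comparison used, also had more D than Q reads: the mean D share there was 54.9% ± 3.47 (SD, n = 6), above 50% in 6 of 6 bees (two-sided exact permutation test, p = 0.03125, the smallest this design can give). Values were 53.9%, 52.3% and 52.5% in active replicates 1 to 3 and 61.3%, 53.0% and 56.1% in inactive replicates 1 to 3.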

How the results depend on the processing

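Of 229 values that answer a comparison, recomputed under the alternatives, 151 stayed on their side or within 1.5 times, 76 moved further and 2 newly passed the threshold. Of 287 recomputations of named genes, 203 kept their call, 80 lost it and 4 turned sign. The cause was not tested except where fewer bees or positions show it. Over 6 bees, paternal calls (140) numbered 77 with 1 position per gene, 269 with DESeq2, 80 with ovary status as the only block and 47 against a fold of 1.5, and maternal calls (27) numbered 45 with DESeq2, 445 with size factors, 337 with TMM, 41 with no filter on reads, 44 at separating positions, 43 there without inactive replicates 1 and 2, and 14 against a fold of 1.5. In active bees, paternal calls (49) numbered 161 with DESeq2, 90 with size factors, 89 with TMM, 87 at separating positions, 128 there without the pair and 18 against a fold of 1.5, and maternal calls (16) numbered 33, 315 and 370 with DESeq2, size factors and TMM, 6 with the ovary block, 33 at separating positions without the pair and 9 against a fold of 1.5. In inactive bees, paternal calls (83) numbered 48 with 1 position per gene, 228 with DESeq2, 5 without the pair, 126 with limma at pseudocount 2, 54 with no filter, 146 at separating positions, 13 there without the pair and 20 against a fold of 1.5. Maternal calls there (25) numbered 70 with DESeq2, 157 with size factors, 1 without the pair, 16 with the ovary block, 39 at separating positions, 4 there without the pair and 16 against a fold of 1.5. The difference between ovary statuses (0 and 0) had 9 higher and 4 lower calls with DESeq2, 1 and 1 with the ovary block, 1 higher with no filter and 1 higher with 10 reads in 2 bees of each status. The mean D share was 52.2% with positions of either table and 52.4% with rows of the same counts taken once (both exact permutation p = 0.03125). Genes above 60% D in every bee (83) numbered 48 at 70%, 153 without the pair and 193 at separating positions without it, and genes below 40% (22) numbered 38 and 44. Leaving out bees asks fewer bees to pass and lets more genes past the read filter, so by itself it cannot lower these counts.

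Leaving out each bee in turn gave 77 to 118 paternal and 16 to 27 maternal calls over the other bees, 77 of them without active replicate 1, 77 without active replicate 2 and 92 without active replicate 3. Calls ranged from 5 to 89 paternal and 1 to 23 maternal in active bees, from 21 to 153 and 10 to 104 in inactive bees, and from 0 to 64 higher and 0 to 28 lower for the difference. The mean D share ranged from 51.8% to 52.5% (exact permutation p 0.0625 to 0.125), genes above 60% from 91 to 121 and genes below 40% from 23 to 29. Neither of these gene counts could fall when a bee was left out. GB51059 turned to -0.0334 with TMM (edgeR adjusted p = 0.475) and -0.0616 with size factors (0.0556), GB47669 to -0.0314 with size factors (0.662), and GB42792 to 0.00087 with 1 position per gene (1). No paired analysis was possible because replicate numbers follow the deposited order and pair no bees. D and Q were paired within each bee. Depth was lowest in inactive replicate 3 by total (7539840 reads in genes) and in inactive replicate 1 by genes with at least 30 D + Q reads (1571, against 1632 in inactive replicate 3).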
